A study of Drosophila melanogaster with 14 samples.

Results

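Among 431 genes that had at least 2 informative probe sets on the array, 51 had probe sets that disagreed on the difference between fmn and control flies. A probe set is a group of short oligonucleotides on the array that are read together as 1 signal for 1 stretch of transcript. The 51 genes were chosen by their measured values: the mean log2 difference of fmn minus control, over 7 arrays of each genotype, had to differ by at least 0.5 between 2 probe sets of the gene. Probe sets entered when their mean signal over the 14 arrays was at least 100 and the platform annotation named that gene alone. The genes are therefore candidates for a change of transcript form, or of the sequence under the probes, and the size of the disagreement is given here as a description, with no test.

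The study compared the heads of the dopamine transporter (DAT) mutant fmn, which sleeps little, with those of the control strain w1118. The fmn mutation arose in a y w stock and was backcrossed to w1118 over 5 generations, and stretches of that stock's genome can remain, around DAT in particular. Sequence was not measured here. Both genotypes were kept in cycles of 12 h light and 12 h darkness and were collected every 4 h at 7 time points, which ran over 1 day (zeitgeber time, ZT, 0 to 24). Each time point of each genotype was 1 array, hybridized with RNA from 1 pool of male and female heads, and the share of each sex in a pool was not given in the sources used here.

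Many genes of the fly nervous system give rise to several transcripts through alternative promoters, alternative splicing and alternative polyadenylation sites. A probe set reads only the transcripts that contain its target, so a switch between forms can raise 1 probe set of a gene and leave or lower the next. A single base difference between strains under the probes can also lower the signal of 1 probe set without any change in the amount of RNA. These signals cannot separate such cases. In RNA from whole heads, fewer cells of a type and less RNA per cell cannot be told apart either.

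Signals are given as deposited, on the linear scale of the MAS5 algorithm. Differences are of log2 signals, centred array by array on the 75th percentile, and errors (±) are the SE of the difference between the 7 arrays of each genotype, with changes over the day included. The signal of DAT was 1.43 to 14.5 on the fmn arrays and 471 to 619 on the control arrays, which fits the labelled genotype of every array and says nothing of the time point or of the rest of the genome. No measured marker of photoreceptors, neurons, glia, muscle or fat body stayed under a signal of 100 on all arrays, whereas 6 of 19 testis and accessory gland markers, 9 of 14 ovary markers and 12 of 23 gut markers did. The summed signal of 6 photoreceptor genes was 75838 to 90363 on fmn arrays and 91551 to 104705 on control arrays, and its part in the results was not tested. Transcripts of other organs were high on 3 arrays. The summed signal of the testis and accessory gland list reached 4187 at ZT 4 in fmn and 4647 at ZT 0 in control, that of the ovary list reached 5723 at ZT 8 in fmn, and that of the gut list reached 13057 at ZT 8 in fmn and 6191 at ZT 0 in control. The lowest sums of these lists were 263, 155 and 421 in fmn and 244, 179 and 444 in control. Without these 3 arrays the same rule found 46 genes, 43 of them among the 51.

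The 51 genes are 11.8% of the 431. They had 160 probe sets between them, and the disagreement, called the spread here, had a median of 0.69 on the log2 scale, against 0.16 over all 431 genes. In 7 genes the spread was at least 1, and in 30 it was under 0.75. Just inside the limit lay pHCl-1 (0.501), trol (0.514) and gpp (0.524), and just outside lay Shaw (0.492), Sxl (0.486) and nAChRbeta1 (0.482). Most of the genes parted because 1 of their outer probe sets differed between genotypes while the other stayed close to control. In 22 genes the highest probe set alone differed by at least 0.32 on the log2 scale and was higher in fmn, and in 20 the lowest alone did and was lower. The value of 0.32 is the log2 of the fold limit that the study's methods give. The outer probe sets of Nrg, Evi5 and Sh passed it in opposite directions, both of CG5953 were lower in fmn, and those of dsx, mod(mdg4), cindr, gpp and pHCl-1 lay on either side of zero without reaching it. Of the 160 probe sets, 29 passed this limit as higher in fmn and 29 as lower, where 4.62% and 4.04% of all 7744 single-gene probe sets with sufficient signal were. Since the rule chose genes on this contrast, nothing is read from those shares.

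**Figure D1:**
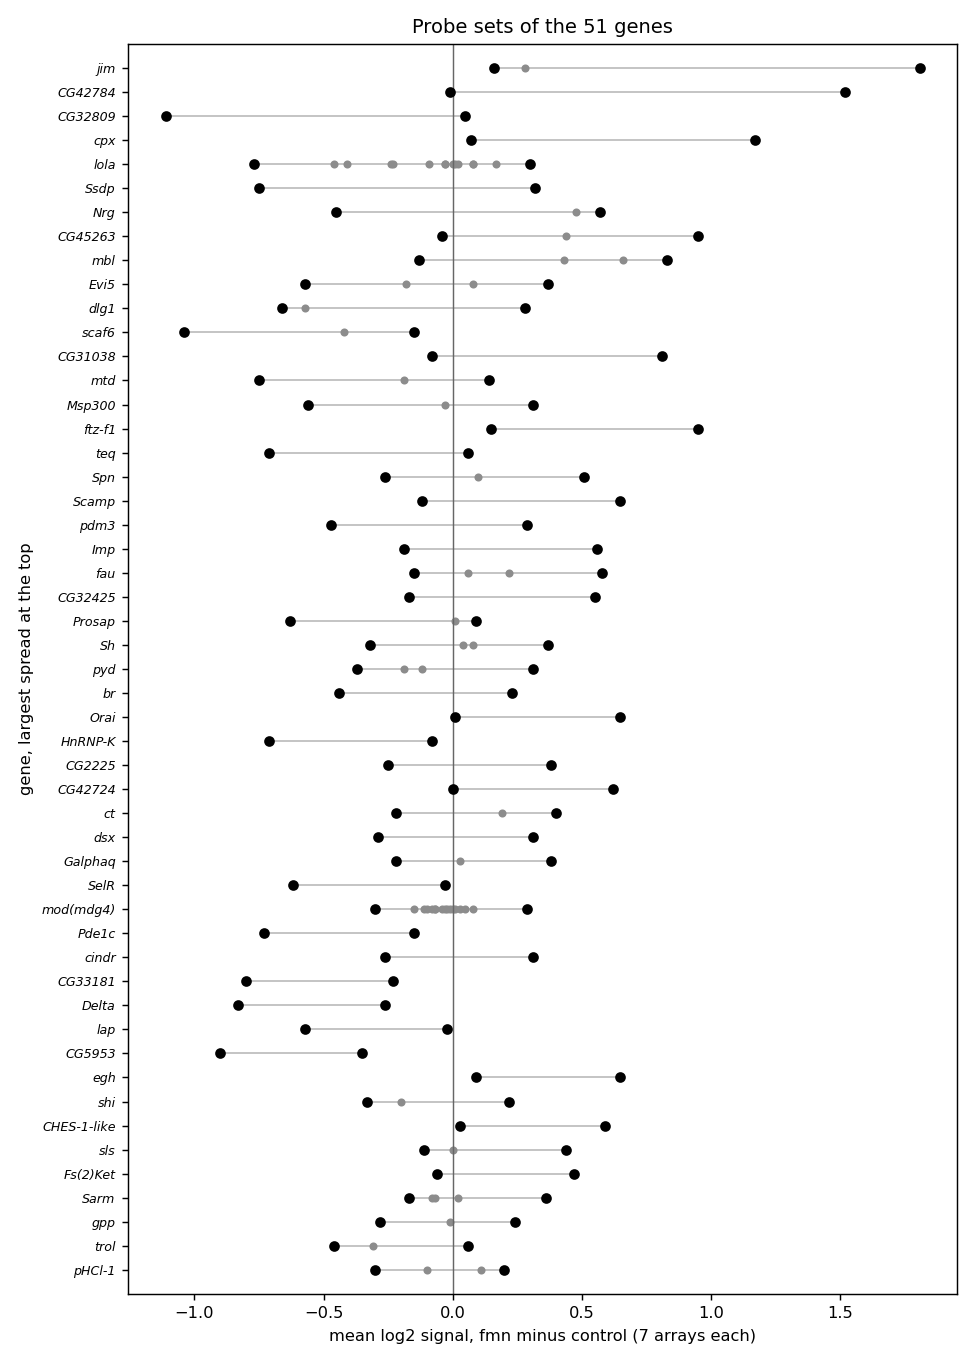
Mean log2 difference of fmn minus control (horizontal axis, 7 arrays per genotype) for each probe set of the 51 genes, with genes ordered down the page by spread. Black points are the highest and lowest probe set of a gene and grey points the probe sets between them; jim and CG42784 reach furthest to the right, at 1.81 and 1.52, and CG32809 and scaf6 furthest to the left, at -1.11 and -1.04.

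For each gene the log ratio of its 2 outer probe sets, highest over lowest, was followed across the 14 arrays relative to its mean on the control arrays. The log ratio was higher in fmn than in control at all 7 time points for 24 genes, at 6 time points for 26 and at 5 for pHCl-1. In 24 of the 26 genes with 1 exception, that exception was ZT 12. The median over the 51 genes was 0.75 to 0.91 on 6 fmn arrays and -0.04 on the fmn array of ZT 12, against -0.07 to 0.09 on the control arrays. The fmn array of ZT 12 was the lowest fmn array for 40 of the 51 genes. The counts of time points follow from the contrast that chose the genes. Neither they nor the counts for the array of ZT 12, here and in the next paragraph, were made for the other 380 genes. They describe the 51 genes alone and do not show whether the pattern is particular to them.

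Whether a gene held its difference at ZT 12 divided the 51 genes into unequal groups. For 35 genes the log ratio on the fmn array of ZT 12 was less than 0.25 of the way from the control mean to that of the other 6 fmn arrays, and for 27 it was below the control mean. It fell within the range of the control arrays for 23 genes and below that range for 14, of which 11 had a probe set higher in fmn past the limit. For 13 genes it kept at least 0.5 of the difference: jim, dlg1, Msp300, teq, CG32425, CG42724, dsx, Galphaq, SelR, mod(mdg4), Pde1c, cindr and lap. The remaining 3, CG31038, Prosap and sls, lay between. The signal of DAT on that array was 3.93, within the range of the other fmn arrays. The log2 ratio of the 3′ to the 5′ control probe set for actin was 1.17 there, against 0.74 to 1.09 on the other fmn arrays and 0.79 to 1.19 on the control arrays. The summed signal of 7 neuronal markers was 8430 on that array, against up to 11197 on the other fmn arrays and 8801 to 10304 on the control arrays, and their median log2 difference from control was -0.25 there and -0.03 on the other fmn arrays. All 7 were measured above a signal of 100 on at least 1 array. The summed signal of 5 glial markers was 17695 at ZT 12, the highest of the fmn arrays, against 17792 to 19989 in control. Median log2 differences from control for glia, photoreceptor, muscle and fat body lists were -0.11, -0.24, -0.08 and -0.12 there. On the other fmn arrays they were -0.04, -0.26, -0.10 and -0.14. The part of neuronal RNA, of RNA quality, of the flies in that pool and of its handling was not tested, and a single array cannot tell them apart from the time of day.

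Over all 14 arrays the fmn and control values of the log ratio did not overlap for 11 of the 51 genes (jim, dlg1, teq, CG32425, Prosap, Galphaq, SelR, mod(mdg4), Pde1c, cindr and lap). Over the 431 genes 17 did not overlap, which is 3.94%. Without the fmn array of ZT 12 there was no overlap for 43 of the 51 genes and 67 of the 431. As these are values of the contrast that chose the genes, the counts describe the genes and support nothing further.

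**Figure D2:**
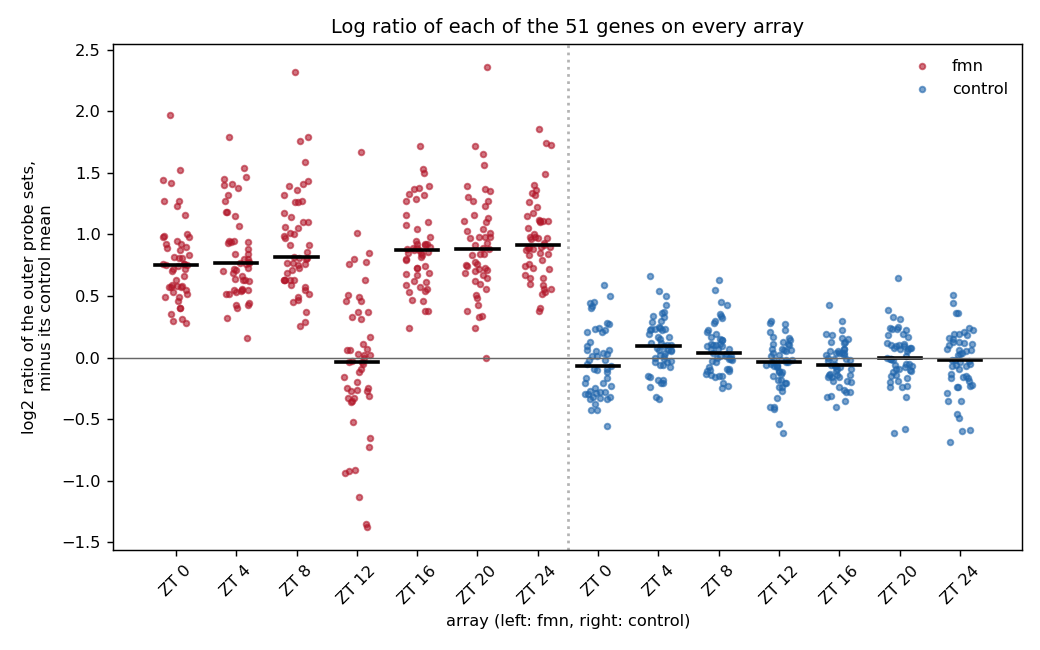
Log2 ratio of the outer probe sets of each of the 51 genes, minus its mean over the control arrays (vertical axis), on the 7 fmn arrays (left) and the 7 control arrays (right) by zeitgeber time. Each point is 1 gene and each bar the median over genes; the medians lie at 0.75 to 0.91 on 6 fmn arrays, at -0.04 on the fmn array of ZT 12 and between -0.07 and 0.09 on the control arrays.

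The 51 genes are taken in order of their known roles, beginning with transcription factors and chromatin proteins, and these groups were formed after the genes were chosen. For lists of genes drawn up with earlier results known, the count among the 51 is given, beside the 11.8% of all 431 genes. That share was 7.92% for genes with 2 probe sets and 50.0% for those with 4 or more. The counts are not adjusted for the number of probe sets, and no enrichment is read from them. Of the zinc finger and BTB factors with several probe sets, 4 of 11 (jim, lola, br and mod(mdg4)) were among the 51. Of kinases, phosphatases and genes of cyclic nucleotide signalling it was 1 of 6 (Pde1c), and of the Cyp, Gst, ribosomal protein, mitochondrial ribosomal protein, ND-, COX and ATPsyn families 0 of 13. The widest spread of all belonged to jim, a zinc finger protein. Probe set 1641365_s_at of jim had a lowest, median and highest signal of 980, 1047 and 1205 in fmn, against 273, 304 and 330 in control. It was higher in fmn by 1.81 ± 0.06 on the log2 scale (SE, n = 7 each), and all fmn arrays lay far above all control arrays, ZT 12 included. Probe set 1636911_at of the same gene had 327, 386 and 425 in fmn and 283, 342 and 386 in control, a difference of 0.16 ± 0.08 with overlapping genotypes. The spread of 1.65 for jim was 1.64 over the other 6 fmn arrays and 1.67 on the array of ZT 12.

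lola encodes a family of BTB factors that share their first part and differ in the zinc fingers added by splicing. It had 15 probe sets, of which 12 differed by less than 0.32. The lowest, 1628946_at, had 935, 1006 and 2104 in fmn, against 1712, 1974 and 2228 in control (-0.77 ± 0.17), and its fmn array of 2104 was that of ZT 12, above a range of 935 to 1434 on the other fmn arrays. At the other end, 1625768_s_at had 108, 125 and 260 in fmn and 89.2, 112 and 136 in control (0.30 ± 0.17). The value of 260 came from the fmn array of ZT 8, which also held transcripts of ovary and gut.

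mod(mdg4), a BTB chromatin protein whose alternative last exons are joined by trans-splicing, had 17 probe sets, the most of any of the 51 genes, and none reached a difference of 0.32. Its outer probe sets were 1622976_at at 0.29 ± 0.08 and 1624020_at at -0.30 ± 0.12. The spread of 0.58 thus came from the ends of a wide family of small differences, although the log ratio of the outer pair did not overlap between genotypes. The zinc finger factor br, known for its role in metamorphosis, had its lowest probe set 1635691_at at 127, 147 and 219 in fmn, against 168, 208 and 227 in control (-0.44 ± 0.12), with the fmn value of 219 at ZT 12.

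Ssdp, a partner of LIM-domain transcription complexes, had probe sets that moved apart in both directions, by different amounts. Probe set 1634037_s_at had 565, 654 and 1185 in fmn, against 1105, 1180 and 1235 in control (-0.75 ± 0.15). Probe set 1627865_a_at had 515, 584 and 732 in fmn, against 429, 469 and 567 in control (0.32 ± 0.08). On the fmn array of ZT 12 both probe sets stood at the control level, at 1185 and 515, and on the other 6 fmn arrays the log ratio averaged 1.23.

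The nuclear receptor ftz-f1 showed one of the largest reversals at ZT 12. Probe set 1640821_at had 1273 to 1571 on 6 fmn arrays and 173 at ZT 12, against 482 to 632 in control. Its difference over all arrays was 0.95 ± 0.44, while 1624520_a_at differed by 0.15 ± 0.10. The log ratio was 1.16 over the other 6 fmn arrays and -1.38 on the array of ZT 12. The POU factor pdm3 (spread 0.76), the homeobox factor ct (0.62), the forkhead factor CHES-1-like (0.55), the histone methyltransferase gpp (0.52) and the sex determination factor dsx (0.60) completed the group. For dsx, whose transcripts are spliced in a sex-specific way, 1623776_s_at had 648, 755 and 863 in fmn and 483, 619 and 697 in control, and 1640799_at had 200, 254 and 343 in fmn and 269, 304 and 361 in control. Both probe sets of dsx overlapped between genotypes, and a difference in the share of males between the pools was not tested.

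gpp lay just inside the limit over all arrays (0.52) and further inside it over the 6 fmn arrays other than ZT 12 (0.76). Its 1627796_s_at had 1096 to 1268 on 6 fmn arrays and 580 at ZT 12, against 713 to 1030 in control, and its 1638708_s_at had 355 to 583 on 6 fmn arrays and 710 at ZT 12, against 504 to 643 in control. Its log ratio at ZT 12 was -0.92, with both probe sets beyond the control range. For pdm3, 1640856_at had 387, 425 and 709 in fmn and 561, 630 and 664 in control, and the value of 709 was again from ZT 12. CHES-1-like 1637670_s_at (0.59 ± 0.20) and ct 1638337_at (0.40 ± 0.14) were higher in fmn with genotypes that overlapped.

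Of 13 RNA-binding and splicing factors with several probe sets, 3 (mbl, Imp and scaf6) were among the 51 genes, and HnRNP-K, an RNA-binding protein outside that list, was too. mbl, the muscleblind splicing factor, is the only one of the 51 within 250 genes of DAT in the Release 6 gene order, a window that held 8 of the 431 genes. Of its 4 probe sets, 3 were higher in fmn by 0.43 to 0.83 on the log2 scale. Probe set 1636099_s_at of mbl had 224 to 350 on 6 fmn arrays and 49.5 at ZT 12, against 102 to 144 in control (0.83 ± 0.36). Probe set 1639930_at had 140, 200 and 267 in fmn and 169, 220 and 236 in control (-0.13 ± 0.13). The log ratio of mbl was 1.28 over the other 6 fmn arrays and -0.91 at ZT 12.

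scaf6, which encodes an RNA-binding protein of the splicing machinery, was lower in fmn to unequal degrees. Its 3 probe sets differed by -0.15 ± 0.04, -0.42 ± 0.09 and -1.04 ± 0.19. The lowest, 1629438_at, had 162 to 243 on 6 fmn arrays and 476 at ZT 12, against 424, 465 and 524 in control. On the array of ZT 12 all 3 probe sets were within the control range, at 466, 388 and 476. Imp, a carrier protein of mRNA, had 1630309_s_at at 426 to 589 on 6 fmn arrays and 268 at ZT 12, against 256 to 332 in control, while 1623455_s_at differed by -0.19 ± 0.09. HnRNP-K lost the difference between its probe sets at ZT 12, with a log ratio of 0.06 there and 0.72 on the other 6 fmn arrays. Its 1625168_at had 145 to 184 on 6 fmn arrays and 230 at ZT 12, all below the control range of 244 to 339, and its 1624355_at differed by -0.08 ± 0.05 and was lowest in fmn at ZT 12 (1110).

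Proteins of the synapse follow, and 4 of 7 listed synapse and vesicle genes with several probe sets were among the 51 (cpx, dlg1, lap and shi). cpx encodes complexin, a small protein that binds the vesicle fusion complex and holds back spontaneous release. Its probe set 1639609_s_at had 3100 to 3462 on 6 fmn arrays and 709 at ZT 12, against 1016, 1146 and 1347 in control (1.17 ± 0.32). Its probe set 1636880_s_at had 5643, 7117 and 8259 in fmn and 5963, 6394 and 8490 in control (0.07 ± 0.09). The probe set that parted was thus high on every fmn array but 1, where it was lower than on any control array, and the log ratio was 1.40 and -0.73 in these cases.

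dlg1, the discs large scaffold of synapses and septate junctions, kept its difference throughout. Probe set 1635382_at had 1143, 1446 and 1808 in fmn, against 1892, 2246 and 2804 in control (-0.66 ± 0.12), and no fmn array reached the control range. Probe set 1640119_a_at had 565, 908 and 1081 in fmn and 871, 1261 and 1608 in control (-0.57 ± 0.17). Probe set 1624021_a_at went the other way, with 882, 966 and 1101 in fmn and 733, 796 and 894 in control (0.28 ± 0.06). Of the 3 probe sets of dlg1, 2 were therefore lower and 1 higher in fmn at all 7 time points, and the array of ZT 12 stood with the rest (log ratio 0.85, against 0.95 on the other 6).

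lap, a clathrin assembly protein of the AP180 family, also held at ZT 12: 1632770_at had 244, 351 and 381 in fmn and 422, 437 and 595 in control (-0.57 ± 0.12), while 1636846_at differed by -0.02 ± 0.05. shi, the dynamin of endocytosis, did not hold: 1625442_a_at had 1891 to 2165 on 6 fmn arrays and 2567 at ZT 12, against 2388 to 2872 in control. The postsynaptic scaffold Prosap, of the Shank family, had 1625236_s_at at 813, 1186 and 1470 in fmn and 1477, 1795 and 2023 in control (-0.63 ± 0.14). Its highest fmn value, at ZT 12, was just under the lowest control value, and its other 2 probe sets differed by 0.09 and 0.01. The scaffold Spn (spinophilin) and the vesicle membrane protein Scamp both had a probe set that dropped below control at ZT 12, with 153 and 207 there, against 269 to 317 and 486 to 578 on the other fmn arrays and 170 to 210 and 235 to 338 on the control arrays.

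Among channels and signalling proteins, Sh was the 1 member of the ion channel list, which had 5 genes with several probe sets. Sh is the Shaker potassium channel, which is known to affect sleep in flies. Its 1623917_a_at had 128, 186 and 260 in fmn, against 96.5, 143 and 191 in control (0.37 ± 0.19). Its 1641501_a_at had 875, 1138 and 1640 in fmn, against 1302, 1483 and 1570 in control (-0.32 ± 0.11). Genotypes overlapped at both, and the probe sets between them differed by 0.08 and 0.04.

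The phosphodiesterase Pde1c, which breaks down cyclic nucleotides under the control of calcium, had a narrow scatter. Its 1625724_at had 280, 329 and 440 in fmn, against 503, 557 and 609 in control (-0.73 ± 0.08), with no overlap, and its 1624542_at had 499, 509 and 665 in fmn and 545, 617 and 644 in control (-0.15 ± 0.07). Galphaq, the G protein of phototransduction, had its outer probe sets at 0.38 ± 0.13 and -0.22 ± 0.06. Orai, the store-operated calcium channel, had 1637534_at at 111 to 180 on 6 fmn arrays and 36.2 at ZT 12. The control arrays had 65.5 to 89.9, all under the signal of 100 used as the limit, as was the fmn value at ZT 12, so the values under 100 have no order. Against that limit the mean of the fmn arrays was at least 1.2-fold higher. The chloride channel pHCl-1 had the smallest spread of the 51 genes, with outer probe sets at 0.20 ± 0.14 and -0.30 ± 0.14 and overlapping genotypes at all 4 of its probe sets.

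**Figure D3:**
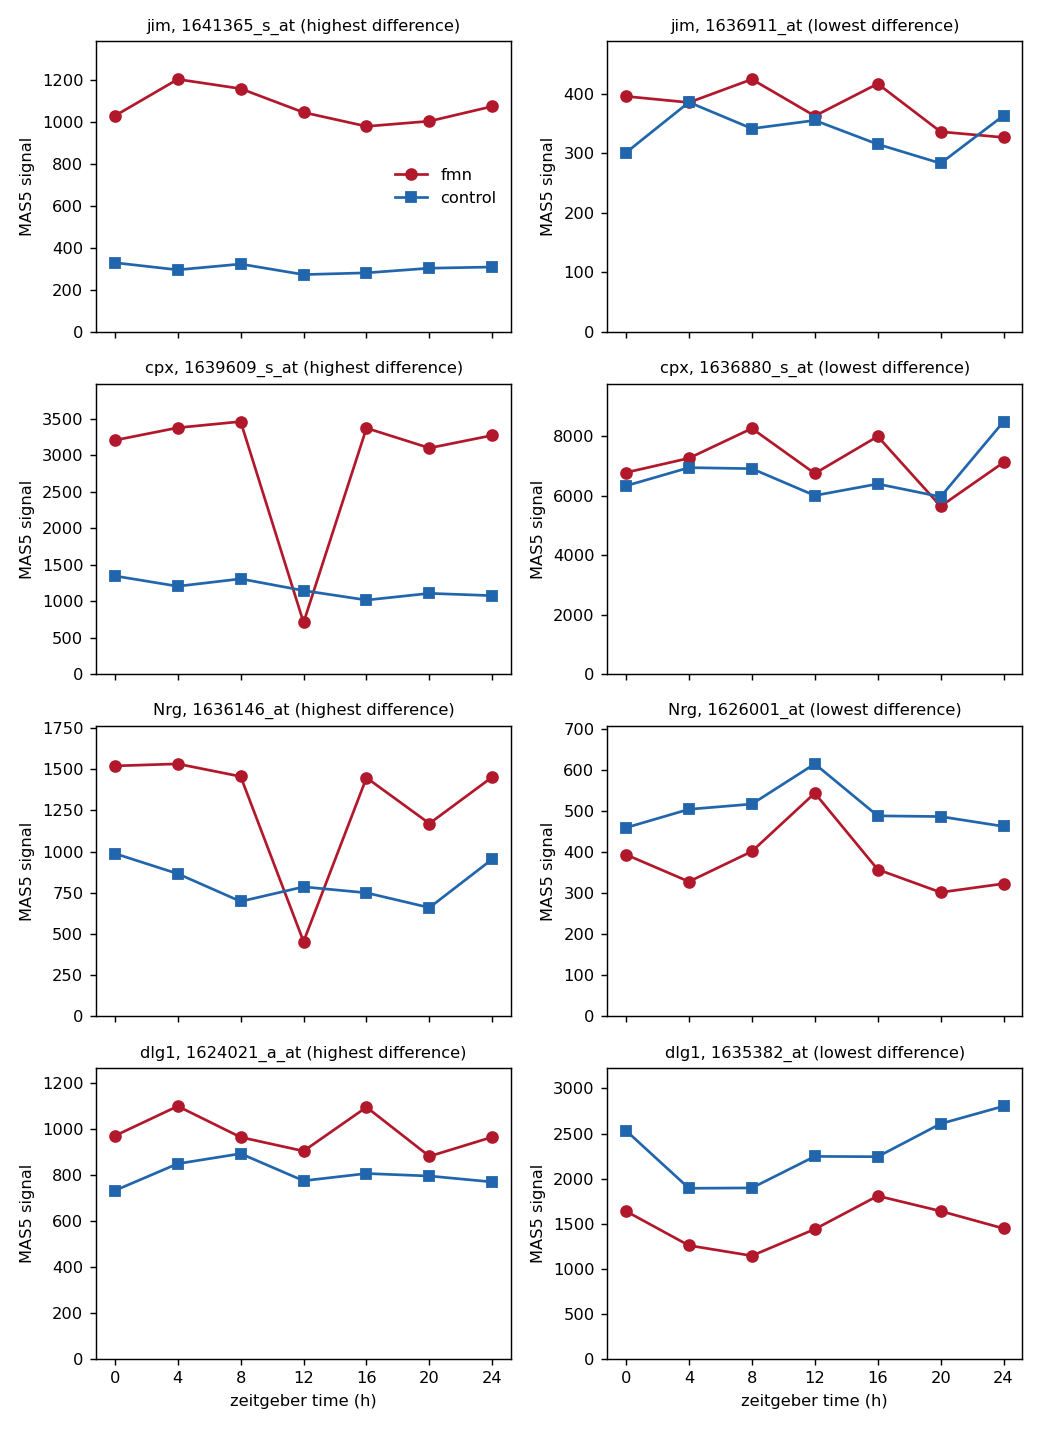
MAS5 signal (vertical axes, linear, starting at 0) over zeitgeber time in hours for the outer probe sets of jim, cpx, Nrg and dlg1, in fmn (circles) and control (squares), 1 array per point. The left probe set of cpx and of Nrg was above control on 6 fmn arrays and below it at ZT 12 (709 and 455), whereas jim at left and dlg1 at right kept the genotypes apart on all arrays.

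Cell surface and matrix genes included the neuronal adhesion protein Nrg, 1 of 9 listed adhesion genes with several probe sets. Neuroglian is known to exist in a neuronal form and a more widespread form that differ through splicing. Its 1636146_at had 1171 to 1533 on 6 fmn arrays and 455 at ZT 12, against 661, 787 and 989 in control (0.57 ± 0.25). Its 1626001_at had 302 to 402 on 6 fmn arrays and 544 at ZT 12, against 459, 488 and 615 in control (-0.45 ± 0.12). Nrg thus had probe sets on opposite sides of control on 6 fmn arrays, with a log ratio of 1.35, and the order was turned round at ZT 12, where it was -0.94. The remaining probe set, 1637463_a_at, went with the first (0.48 ± 0.20).

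trol encodes the matrix protein perlecan. Its 1625116_at had 523 to 635 on 6 fmn arrays and 760 at ZT 12, against 724 to 897 in control (-0.46 ± 0.08), and its 1641442_a_at differed by 0.06 ± 0.07. egh, a glycosyltransferase of glycolipid synthesis, had 1631621_s_at at 1669 to 1862 on 6 fmn arrays and 435 at ZT 12, against 811 to 996 in control. Its other probe set had 897 to 1033 in fmn and 834 to 983 in control, so that the wide swing at ZT 12 was seen at only 1 of them. The Notch ligand Delta had low signals: 1634398_a_at had 56.9 to 92.5 on 6 fmn arrays and 173 at ZT 12, against 120 to 171 in control. Those 6 values lie under the signal limit of 100, so the size of the difference is uncertain. Its 1634659_at differed by -0.26 ± 0.16 and was under 100 on 3 fmn arrays. cindr, an adaptor protein at cell junctions, had 1640850_at at 0.31 ± 0.08 and 1633711_a_at at -0.26 ± 0.10 and kept its log ratio at ZT 12 (0.76, against 0.54 on the other 6 fmn arrays). pyd, the fly ZO-1 of cell junctions, is described with the time of day.

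Both large cytoskeletal proteins among the 51 came from the list of cytoskeleton and muscle genes, which had 5 genes with several probe sets. Msp300, a nesprin that anchors nuclei in muscle, had 1632945_at at 844, 1154 and 1617 in fmn, against 1487, 1681 and 1799 in control (-0.56 ± 0.14), and 1641672_at at 144, 166 and 196 in fmn, against 84.4, 127 and 192 in control (0.31 ± 0.18). Genotypes overlapped at both, and the log ratio was 0.78 at ZT 12 and 0.88 on the other 6 fmn arrays. For sls, the fly titin, 1628671_a_at had 262 to 318 on 6 fmn arrays and 191 at ZT 12, against 168 to 227 in control (0.44 ± 0.11), and the other 2 probe sets differed by 0.00 and -0.11.

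Enzymes, transport proteins and adaptors followed. teq, a secreted serine protease known for its role in memory, had 1624957_a_at at 598, 736 and 747 in fmn, against 944, 1184 and 1307 in control (-0.71 ± 0.08), and 1626427_a_at at 0.06 ± 0.10. SelR, a methionine sulfoxide reductase, had 1635788_a_at at 2704, 2783 and 3843 in fmn, against 3963, 4443 and 5004 in control (-0.62 ± 0.08), and 1630886_at at -0.03 ± 0.07. Both teq and SelR therefore had 1 probe set lower on every fmn array than on any control array and 1 close to control.

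Evi5, a regulator of Rab GTPases, was of the opposing kind: 1630827_s_at had 378 to 473 on 6 fmn arrays and 278 at ZT 12, against 262 to 385 in control (0.37 ± 0.12), and 1638996_at had 104 to 144 on 6 fmn arrays and 210 at ZT 12, against 157 to 224 in control (-0.57 ± 0.14). For mtd, an antioxidant and immune gene, 1626842_a_at had 290 to 385 on 6 fmn arrays and 670 at ZT 12, against 563, 598 and 651 in control (-0.75 ± 0.16). Its 1635703_s_at had 953, 1220 and 1400 in fmn and 935, 1008 and 1316 in control (0.14 ± 0.10). At ZT 12 both probe sets of Evi5 were within the control range and 1626842_a_at of mtd was just above it. Fs(2)Ket, the importin beta of nuclear transport, Sarm, a TIR protein of axon degeneration, and fau had 1 higher probe set each (0.47 ± 0.14, 0.36 ± 0.11 and 0.58 ± 0.19). The array of ZT 12 was the lowest fmn array at each of these 3 probe sets.

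The other 9 genes carry only a CG number. CG42784 had the second largest spread, 1.53: its 1632437_at had 208 to 311 on 6 fmn arrays and 56.5 at ZT 12, against 51.3, 71.6 and 104 in control (1.52 ± 0.35), and its 1628254_at had 1197, 1477 and 1646 in fmn and 1265, 1431 and 1632 in control (-0.01 ± 0.08). CG32809 moved the other way: its 1629389_a_at had 70.3 to 120 on 6 fmn arrays and 186 at ZT 12, against 184, 228 and 278 in control (-1.11 ± 0.17), and its 1640631_at had 177, 244 and 266 in fmn and 201, 225 and 263 in control (0.05 ± 0.09). For both genes the parting probe set was dim, and at ZT 12 it stood at the control level. That of CG42784 was under 100 on 6 of 7 control arrays, so the size of its difference is uncertain, and with a pseudocount of 32 its spread was 1.23. CG45263 had 1634833_at at 203 to 326 on 6 fmn arrays and 97.6 at ZT 12, against 85.5, 126 and 138 in control (0.95 ± 0.24). Its probe set 1626627_at (0.44 ± 0.06) was higher on all 7 fmn arrays than on any control array, and 1631804_s_at had 977, 1043 and 1104 in fmn and 948, 1087 and 1246 in control.

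CG31038 had 1632360_s_at at 99.1, 158 and 198 in fmn, against 68.3, 78.7 and 119 in control (0.81 ± 0.18). Its 1625178_at had 2190, 2421 and 2669 in fmn, against 2468, 2530 and 2722 in control (-0.08 ± 0.05). The signal of 1632360_s_at was under 100 on 6 control arrays and 1 fmn array, so the size of its difference is uncertain. With a pseudocount of 32 the spread of CG31038 was 0.7, against 0.89 without it. CG32425 was bright at the parting probe set: 1625503_at had 5769, 6212 and 7074 in fmn, against 3535, 4093 and 5104 in control (0.55 ± 0.08), with no overlap. CG5953 was the single gene with both outer probe sets lower in fmn past the limit, at -0.35 ± 0.06 and -0.90 ± 0.16. CG33181 was lower to unequal degrees, at -0.23 ± 0.10 and -0.80 ± 0.17. CG2225 and CG42724 had a higher probe set at 0.38 ± 0.21 and 0.62 ± 0.15, both with overlapping genotypes.

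**Figure D4:**
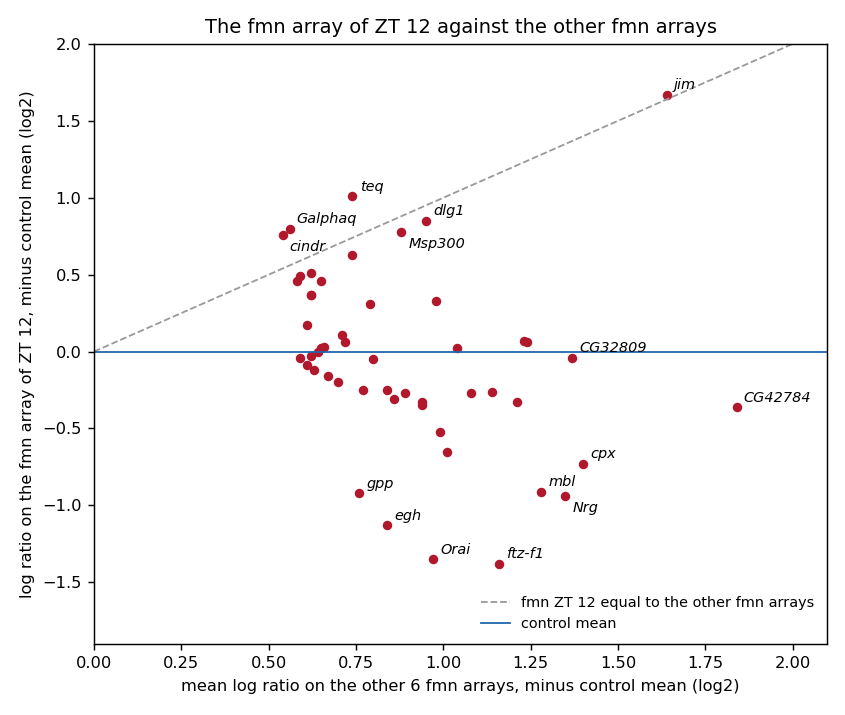
Log2 ratio of the outer probe sets on the fmn array of ZT 12 (vertical axis) against its mean on the other 6 fmn arrays (horizontal axis), both minus the control mean, for the 51 genes. jim, teq, dlg1, Msp300, Galphaq and cindr lie near the dashed line of equal values, whereas ftz-f1, Orai, egh, Nrg, gpp, mbl and cpx lie at -0.73 or lower.

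Features that the rule did not use were compared as shares. Genes with more probe sets were chosen more often, as 27 of 341 genes with 2 probe sets (7.92%), 15 of 72 with 3 (20.8%) and 9 of 18 with 4 or more (50.0%) were among the 51, which the rule favours because it takes the widest pair. Within these classes the median number of RefSeq transcripts was 6, 9 and 17 for the 51 genes and 4, 5 and 10 for the others. Gene models that had been joined from at least 2 older ones were as frequent among the 51 genes (10, 19.6%) as among the other 380 (76, 20.0%). Probe sets whose names mark a unique target (_at) made up 58.8% of the 160 and 55.6% of the 997 probe sets of all 431 genes. Those that read several transcripts of 1 gene (_a_at) made up 18.1% and 25.7%, and those that can read other genes as well (_s_at) 23.1% and 18.3%. The parting probe sets of jim, cpx, Ssdp and mbl, among others, are of the _s_at type. A signal from another gene at such probe sets was not tested.

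By chromosome arm, 14 of 79 genes on X were among the 51 (17.7%), 15 of 114 on 3R, 9 of 87 on 3L, 7 of 78 on 2R, 6 of 64 on 2L and 0 of 9 on chromosome 4. The deviations of the 2 outer probe sets from their genotype means had a median Pearson r of 0.10 over the 14 arrays for the 51 genes (range -0.76 to 0.75, 23 under 0) and of 0.24 for the others, where both probe sets share the same arrays. The choice of genes bears on this r, and it is given as a description. The log ratio at ZT 24 differed from that at ZT 0 by a median absolute value of 0.237 in fmn (most for Msp300, 0.79) and 0.274 in control (most for CG42784, 1.14). The parting probe set had a mean signal under 200 in 15 of the 51 genes.

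The time of day was independent of the rule, since both genotypes were sampled at the same times, and was therefore tested. A single 24 h rhythm was fitted to both genotypes together with limma. At a Benjamini-Hochberg adjusted p under 0.05 it was found in 19 of the 160 probe sets (11.9%, 13 genes). Of all 8732 probe sets tested, 14.1% were rhythmic, so the share was close to that of the array as a whole. Fitted in 1 genotype alone, 4 of the 160 were called in control and 2 in fmn, against 208 and 130 of all 8732. A rhythm in each genotype was therefore not shown for most of the 19. The clearest rhythm belonged to pyd, which was singled out after its values were seen. All 4 probe sets of pyd peaked late in the night, at ZT 21.3, 21.2, 20.5 and 22, with amplitudes of 0.721, 0.481, 0.197 and 0.624 on the log2 scale (limma adjusted p 5.06e-07, 4.77e-05, 0.000381 and 0.0168). Its 1627360_at had 266, 538 and 664 in fmn and 338, 608 and 889 in control, lower in fmn at all 7 time points, and its 1637322_at had 829 to 1407 on 6 fmn arrays and 296 at ZT 12, against 446 to 1022 in control.

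**Figure D5:**
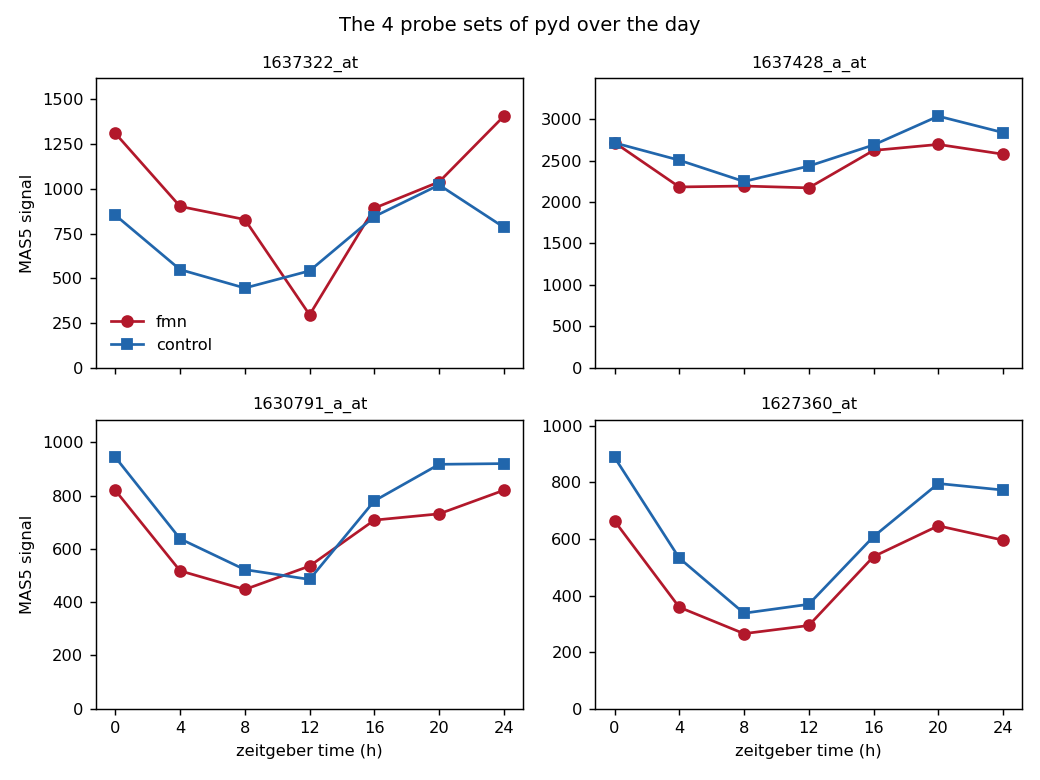
MAS5 signal (vertical axes, linear, starting at 0) of the 4 probe sets of pyd over zeitgeber time in hours, in fmn (circles) and control (squares), 1 array per point. All 4 probe sets were high late in the night and low during the day, and 1637322_at was 296 on the fmn array of ZT 12.

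dlg1 was next, with 1640119_a_at peaking at ZT 19.7 (amplitude 0.426, limma adjusted p 6.71e-06) and 1635382_at at ZT 19.5 (0.271, adjusted p 0.00596), the same 2 probe sets that were lower in fmn. The remaining probe set, 1624021_a_at, did not pass the test. The other rhythmic probe sets were 2 of mbl (peaks at ZT 22.3 and 21.4), 2 of Prosap (ZT 9.69 and 10.9) and 1 each of cindr (ZT 23.2, amplitude 0.221, adjusted p 0.000324), Orai (ZT 13.4), teq (ZT 3.01), shi (ZT 10.9), mod(mdg4) (ZT 9.4), Spn (ZT 9.55), gpp (ZT 19.1), Sh (ZT 20.3) and br (ZT 0.218). Peaks thus fell at different times, and the rhythm was not always in the probe set that parted between genotypes: for teq it was in 1626427_a_at, which was close to control, and for Orai in 1625514_s_at.

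Whether the probe sets of a gene also parted over the day was asked of the log ratios. None of the 51 passed the limma F test (0 of 51 at an adjusted p under 0.05), where 9 of the 431 (2.09%) did. An unadjusted p under 0.05 in that test was reached by 6 of the 51 and by 65 of the 431. The smallest adjusted p was 0.0595, for dlg1, whose log ratio had an amplitude of 0.328 ± 0.0699 (SE) and peaked at ZT 7.39. It was called without the fmn array of ZT 12, as a count of 1 of 51, and likewise without the control array of ZT 16 or of ZT 24. A difference in rhythm between genotypes was not found in limma for any of the 160 probe sets (0 of them and 0% of the 8732 tested). The smallest adjusted p among the 160 in that limma test was 0.998. Its unadjusted p was under 0.05 for 12 of the 160 and 361 of the 8732. Nor was such a difference found for any of the 51 log ratios (0 of them and 0% of the 431). The smallest adjusted p among the 51 in limma was 0.556. Its unadjusted p was under 0.05 for 4 of the 51 and 26 of the 431. With 1 array per time point and genotype, these tests measure the scatter of single arrays about the curve.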

How the data were processed

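The authors extracted RNA from about 400 heads per pool, hybridized 1 pool per array to Affymetrix Drosophila Genome 2.0 arrays, and deposited probe set intensities on a linear scale, calculated with MAS5. The name MAS5 also stands in the submitters' processing notes, and its version and scaling target are not given in the sources used here. A later normalization in the Subio Platform is not in these values. Genotype and time came from the sample labels, and arrays are numbered by time only as names.

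Of 18769 probe sets that are not controls (183 controls were left out), 7744 had a mean signal of at least 100 and named 1 gene. The log2 intensities were centred on the 75th percentile of each array. No column of values was left unused. Gene names come from the platform annotation, and all 431 genes were found in the RefSeq table of the Release 6 assembly, which gave chromosome arm, gene order and number of transcripts. Another 42 probe sets naming only 1 of the 51 genes, in 19 of them, were under the signal limit, and 5 named a further gene. MAS5 Present calls were not analysed here.

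Rhythms were tested in R 4.3.3 with limma 3.58.1 (lmFit and eBayes) as F tests of a cosine and a sine term with a 24 h period, beside a genotype term, on 8732 probe sets and on the log ratios of 431 genes, with Benjamini-Hochberg adjustment over all of these. The test was checked on simulated data. The p-values measure the spread between arrays, each 1 pool. No time point was repeated, and the number of arrays limits the precision. Tables and plots were made in Python 3.11.15 with numpy 2.4.6, pandas 2.3.3 and matplotlib 3.10.9. The alternatives changed the scaling, a pseudocount of 32, the signal limit, the spread, the average, the variance prior and the arrays.

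The genes, the gene lists and the tests were chosen with earlier results of these data known. Genes given one by one were, by rule, the 15 with the largest spread, those with opposite differences, those within 250 genes of DAT and those nearest the limit. The other genes were described after their values were seen.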

Additional observations from a re-analysis of the deposited data

Results flagged for a closer look

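The log ratio of the outer probe sets, minus its control mean, was examined for a single array far from the other 6 of its genotype (Dixon's ratio above 0.568). Among the 102 sets of 7 arrays, 25 had one. Chance gives about 1 in 20 for independent sets, but these genes share the same 14 arrays, so the count is a description and no test. The other 380 genes were not examined in this way, so the count does not show whether the pattern is particular to the 51. In fmn it was the array of ZT 12 in all 18 cases. Its log ratio was -0.36 for CG42784, -0.04 for CG32809, -0.73 for cpx, -0.94 for Nrg, -0.33 for CG45263, -0.91 for mbl, -0.26 for Evi5, -0.27 for mtd and -1.38 for ftz-f1. It was -0.52 for Spn, -0.65 for Scamp, -0.33 for Imp, -0.27 for fau, -1.35 for Orai, 0.06 for HnRNP-K, -1.13 for egh, -0.92 for gpp and -0.09 for trol.

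In control the 7 cases fell on the arrays of ZT 0, ZT 4, ZT 20 and ZT 24. Most were on that of ZT 0, which also held transcripts of testis and gut. At ZT 0 the log ratio was -0.43 for CG32809, 0.40 for ftz-f1, 0.23 for egh and -0.34 for shi. It was 0.66 for pHCl-1 at ZT 4, 0.18 for trol at ZT 20 and 0.51 for lola at ZT 24.

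For Orai the parting probe set was under a signal of 100 on the fmn array of ZT 12 and on all 7 control arrays, so the value of -1.35 is no measured reversal.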

How the results depend on the processing

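The number of genes whose probe sets disagreed was 51 with quantile normalization, 41 with a pseudocount of 32, 70 of 536 at a minimum signal of 50, 37 of 289 at 200, 58 with medians (46 of the 51 kept) and 61 without the fmn array of ZT 12 (all 51 kept). It was 7 at a minimum spread of 1, and leaving out 1 array gave 48 to 61. For the 19 genes given one by one, 361 recomputed spreads lay between 0.42 and 1.84, each within 1 SD of the log ratio over the arrays of a genotype, an SD that the fmn array of ZT 12 widens.

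Rhythmic probe sets numbered 19 of 160, 11 without the 3 arrays that held transcripts of other organs (fmn at ZT 4 and ZT 8, control at ZT 0), 4 in control alone and 2 in fmn alone (both times in dlg1 and pyd), and 12 to 22 with 1 array left out (12 without the fmn array of ZT 8). Over all 8732 probe sets the counts were 1229, 662 without the same 3 arrays, 208 in control alone and 130 in fmn alone. With 1 array left out they were 984 to 1239. Rhythmic log ratios numbered 0 of 51, 1 (dlg1) without the fmn array of ZT 12, 1 of 33 (dlg1) at a minimum signal of 200, and 0 to 1 with 1 array left out. Over all genes tested these counts were 9 of 431, 8 of 431, 13 of 265, and 7 to 12 of 431. A genotype difference in rhythm was called for 3 of 51 log ratios (cpx, ftz-f1 and Orai) without the 3 arrays that held transcripts of other organs, and for 3 of all 431. In that setting the fmn array of ZT 12 is 1 of 5 fmn arrays. In the other settings 0 were called. The causes were not tested. Arrays of the same time point were not paired in a test, as the genotype difference chose the genes, and the number of time points in 1 direction was given instead.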
